A study of Bos taurus with 24 samples.

Results

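The genes described here are the amino acid transporters of the families SLC1, SLC3, SLC7, SLC36, SLC38 and SLC43 in granulosa cells of the cow. They were chosen by symbol alone: 35 of the 27607 genes in the deposited count table received a symbol of one of these 6 families. RNA was sequenced in 24 libraries of 5 groups: 4 of granulosa cells from secondary follicles (secondary_GC) and 5 of each antral group. The early antral follicles gave cumulus (early_CC) and mural (early_MGC) cells, as did the late antral ones (late_CC, late_MGC). Cumulus cells are the granulosa cells next to the oocyte, and mural cells line the follicle wall. No genotype, treatment, breed or age is given for any group, and the labels do not say whether libraries came from separate animals or from pools, so p-values measure only the spread between these samples, which may be technical. The study asks whether granulosa cells of different stages can rebuild transzonal projections, the thin processes that reach the oocyte, and whether gene expression changes over the same stages.

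Amino acids cross the cell membrane through carriers that differ in what they take and in what drives them. SLC38 carriers take up glutamine, alanine and other small neutral amino acids with sodium, and SLC1 carriers take up glutamate and aspartate, or alanine, serine and cysteine. Most of the SLC7 carriers discussed here exchange one amino acid for another and work only when bound to a heavy chain of the SLC3 family. SLC43A1 and SLC43A2 let large neutral amino acids pass down their gradient, and some but not all SLC36 carriers use a proton gradient. The oocyte takes up some amino acids poorly by itself, and cumulus cells are known to pass amino acids to it through gap junctions.

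The libraries held between 8379801 and 31762400 counts, 18070281.5 at the median. Levels are given as CPM (counts per 1000000 counts of the library), as mean ± SD over the libraries of a group, and levels of different genes are compared only as RPKM, which is CPM per kilobase of exon. In bulk RNA, fewer cells of a type and less RNA per cell cannot be told apart. Libraries 3 of late_MGC and late_CC stood apart, with mean correlations of 0.854 and 0.914 with the rest of their own groups, against 0.938 to 0.979 for the other 22 libraries. Library 3 of late_MGC held 10.6 CPM of the granulosa receptor FSHR and a sum of 2835 CPM over 14 theca and stroma markers, against 302 to 381 CPM and sums of 288 to 451 CPM in the other late_MGC libraries. Library 3 of late_CC held 191 CPM of INHBA, a subunit of activin and inhibin, against 4890 to 11334 CPM in the other late_CC libraries. FSHR was between 201 and 424 CPM in all libraries except library 3 of late_MGC, between 5 and 8 of 14 oocyte markers had no count in a group, BMP15 among them, and the 14 summed to 23.1 to 36.1 CPM in secondary_GC, 8.45 to 29.1 in early_CC, 9.79 to 15.8 in early_MGC, 10.3 to 20.2 in late_CC and 2.82 to 5.73 in late_MGC, with OOEP the highest in each group. The part of oocyte RNA in the results was not tested.

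Of the 35 genes, 23 had enough counts to be tested and 12 did not. SLC1A2, SLC36A2, SLC38A8 and SLC7A10 had no count in any library, which allows at most 0.0244 to 0.0402 CPM over a group (3 counts). Without molecular identifiers such limits and intervals cover only the error of counting. SLC1A6, SLC1A7, SLC36A3, SLC38A4, SLC38A11, SLC7A3 and SLC7A14 averaged at most 0.325 CPM in any group. SLC38A3, a glutamine and histidine carrier that the oocyte is known to raise in mouse cumulus cells, was also among the untested genes. It averaged 0.342 CPM in secondary_GC, 0.263 in early_CC, 0.181 in early_MGC, 0.565 in late_CC and 0.0829 in late_MGC. Its 46 counts in late_CC against 9 in late_MGC make a ratio of 6.26 (exact 95% interval 3.03 to 14.6 for counting error only), with counts in all 5 late_CC libraries. A further 4 symbols, SLC1A5, SLC36A1, SLC7A2 and SLC7A4, could not be matched to a gene of the table and are not analysed here.

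The sodium-coupled carrier SLC38A2, known to be induced when amino acids run short, was the most abundant transporter of this set in every group, with a mean of 38.2 RPKM in secondary_GC, 49.6 in early_CC, 40.1 in early_MGC, 81.9 in late_CC and 67.8 in late_MGC. Its share of the summed RPKM of the 35 genes was 28.9% in secondary_GC and between 35.1% and 41.6% in the antral groups. The heavy chain SLC3A2 ranked next in secondary_GC (20.7 RPKM) and early_CC (15.7 RPKM). SLC38A1 ranked next in early_MGC (13.6 RPKM) and late_CC (43.4 RPKM), and SLC43A1 in late_MGC (16.7 RPKM). Summed over the 35 genes the level was 132 ± 23.6 RPKM in secondary_GC, 137 ± 14.6 in early_CC, 110 ± 23.9 in early_MGC, 234 ± 28.8 in late_CC and 163 ± 37.9 in late_MGC. All 5 late_CC libraries, at 210 to 280 RPKM, lay above all 5 early_CC libraries, at 124 to 162 RPKM; these sums were not tested.

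**Figure D1:**
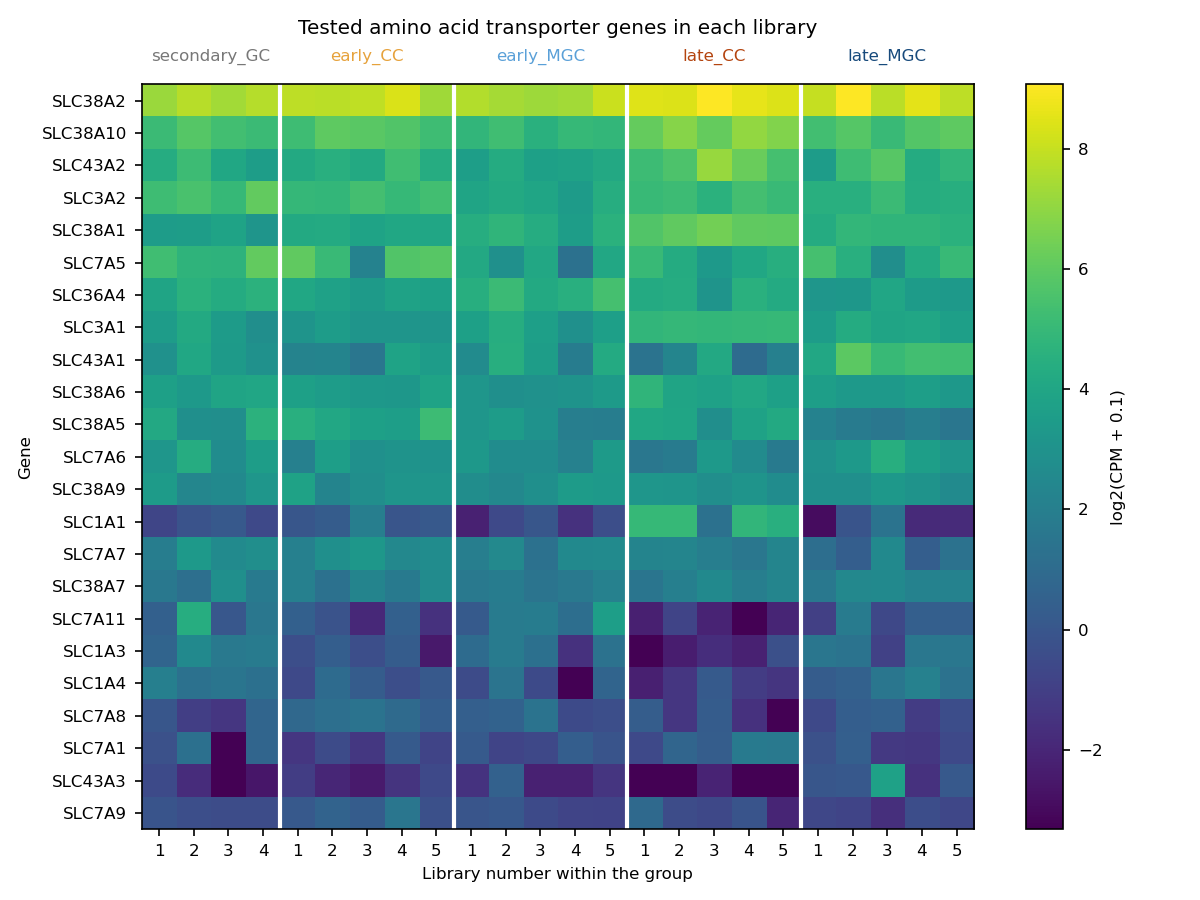
Heat map of the 23 tested transporter genes (rows, ordered by mean CPM) in the 24 libraries (columns, grouped), coloured by log2(CPM + 0.1). SLC38A2 is the brightest row in every library, and SLC1A1 is bright in 4 of the 5 late_CC libraries, library 3 being the exception.

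Counts were compared with edgeR's quasi-likelihood test over 14298 genes, and a gene is said to rise or fall only where p, adjusted by Benjamini and Hochberg's method, was under 0.05. In early_MGC against secondary_GC, 1 transporter rose and 1 fell, 8.7% of the 23, where 9.1% of all genes were called (5.01% higher, 4.08% lower). In early_CC against secondary_GC edgeR called none, against 1.99% of all genes (0.944% higher, 1.05% lower); DESeq2 called 2, and 5 of the 23 had an unadjusted p under 0.05. From the early to the late antral stage, 8 rose and 2 fell in cumulus cells, 43.5% of 23 against 45.2% of all genes (22.5% higher, 22.7% lower). In mural cells over the same stages 5 rose and 1 fell, 26.1% against 19.1% (9.76% higher, 9.3% lower). Cumulus against mural cells gave 2 higher and 2 lower at the early stage, 17.4% against 13.1% (6.7% higher, 6.39% lower). At the late stage 6 were higher and 6 lower, 52.2% against 39.7% (18.9% higher, 20.8% lower). A test of whether the late-over-early change differed between the cell types called 8, 4 in each direction, 34.8% against 31.4% (14.5% higher, 16.9% lower). Any difference among the 5 groups was called for 17 of the 23, 73.9% against 65.1% of all genes. The transporters as a set were thus called about as often as other genes in most comparisons, and what follows is about individual carriers. The median log2 fold change of the 23 was -0.14 for late_CC over early_CC and 0.45 for late_MGC over early_MGC, against 0.04 and 0.05 for all genes tested.

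SLC38A1 and SLC38A2, the main glutamine and alanine uptake carriers of many cells, lie close together on chromosome 5 of ARS-UCD1.2, on the same strand (SLC38A2, ENSBTAG00000011105, 33850777 to 33865222; SLC38A1, ENSBTAG00000000859, 33940564 to 33993305). SLC38A1 stood at 52.5, 66.8, 87.6, 67.0 and 63.8 CPM in late_CC, against 18.5, 19.2, 14.8, 16.9 and 16.3 CPM in early_CC. Every late_CC library was at least 52.5 CPM and no library of any other group exceeded 29.1 CPM. SLC38A1 thus rose in late_CC over early_CC by a log2 fold change of 1.99 ± 0.19 (SE; adjusted p = 3.4e-08) and was higher in late_CC than in late_MGC, where it was 19.5, 29.1, 27.9, 27.9 and 23.7 CPM (1.21 ± 0.18, adjusted p = 1.2e-05). Late_MGC did not differ detectably from early_MGC (0.39 ± 0.18, adjusted p = 0.139), and the difference between the changes of both cell types was itself called (1.60 ± 0.26, adjusted p = 6.2e-05). Between the follicle stages before that, SLC38A1 rose to 21.1 ± 5.87 CPM in early_MGC, against 11.7 ± 2.38 CPM in secondary_GC (0.98 ± 0.20, adjusted p = 0.0038). No call on SLC38A1 was lost when any single library was left out.

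SLC38A2 rose over the antral stages in both cell types. It stood at 358, 338, 533, 387 and 343 CPM in late_CC, against 230, 224, 239, 334 and 160 CPM in early_CC. In mural cells it stood at 253, 540, 218, 378 and 231 CPM in late_MGC, against 203, 171, 153, 164 and 268 CPM in early_MGC. The cumulus groups did not overlap while the mural groups did, and both rises were called (cumulus 0.73 ± 0.24, adjusted p = 0.0147; mural 0.86 ± 0.24, adjusted p = 0.0130). Each rested on single libraries: the cumulus call was lost without library 3 of late_CC (0.56, adjusted p = 0.058) or library 5 of early_CC (0.61, adjusted p = 0.050), and the mural call without library 2 of late_MGC (0.62, adjusted p = 0.057). The difference between the changes was -0.13 ± 0.34 (adjusted p = 0.806).

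SLC38A5, which moves glutamine, asparagine, histidine and serine in exchange for protons, was higher in cumulus than in mural cells at both antral stages. It stood at 16.8, 15.3, 6.78, 14.1 and 18.3 CPM in late_CC and at 4.49, 3.45, 2.95, 3.79 and 2.85 CPM in late_MGC. No library overlapped between these groups, and the log2 fold change was 1.80 ± 0.38 (adjusted p = 0.00053). At the early stage it was 20 ± 9.57 CPM in early_CC and 7.21 ± 3.36 CPM in early_MGC, again without overlap (1.35 ± 0.37, adjusted p = 0.0176). The early call was lost without library 5 of early_CC (1.07, adjusted p = 0.071), library 4 of early_MGC (1.23, adjusted p = 0.052) or library 5 of early_MGC (1.16, adjusted p = 0.055). In secondary_GC it was 14.2 ± 8.80 CPM, overlapping both early antral groups. The gene lies on chromosome X (ENSBTAG00000011854, 86584143 to 86593327).

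Of the less well characterised carriers, SLC38A10 was 98.6 ± 27.6 CPM in late_CC, against 50.5 ± 12.6 CPM in early_CC (0.96 ± 0.22, adjusted p = 0.0010), and 49.5 ± 12.4 CPM in late_MGC, against 30.3 ± 5.51 CPM in early_MGC (0.81 ± 0.22, adjusted p = 0.0114). It was also higher in late_CC than in late_MGC (0.77 ± 0.22, adjusted p = 0.0072), and the difference between the 2 changes over stages was 0.15 ± 0.31 (adjusted p = 0.761). SLC38A6 rose to 17.4 ± 5.77 CPM in late_CC, against 11.6 ± 2.21 CPM in early_CC (0.60 ± 0.22, adjusted p = 0.025), a call lost without library 1 of late_CC (0.41, adjusted p = 0.094), library 3 of early_CC (0.55, adjusted p = 0.058) or library 4 of early_CC (0.55, adjusted p = 0.060). SLC38A9, which senses arginine in the lysosome for the growth regulator mTORC1, averaged 7.76 CPM in secondary_GC, 8.66 in early_CC, 8.17 in early_MGC, 7.87 in late_CC and 7.58 in late_MGC, and the joint test over the 5 groups did not call it (adjusted p = 0.914). SLC38A7, a glutamine exporter of the lysosome, lay between 3.34 and 4.65 CPM on average and was not called either (joint adjusted p = 0.54).

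**Figure D2:**
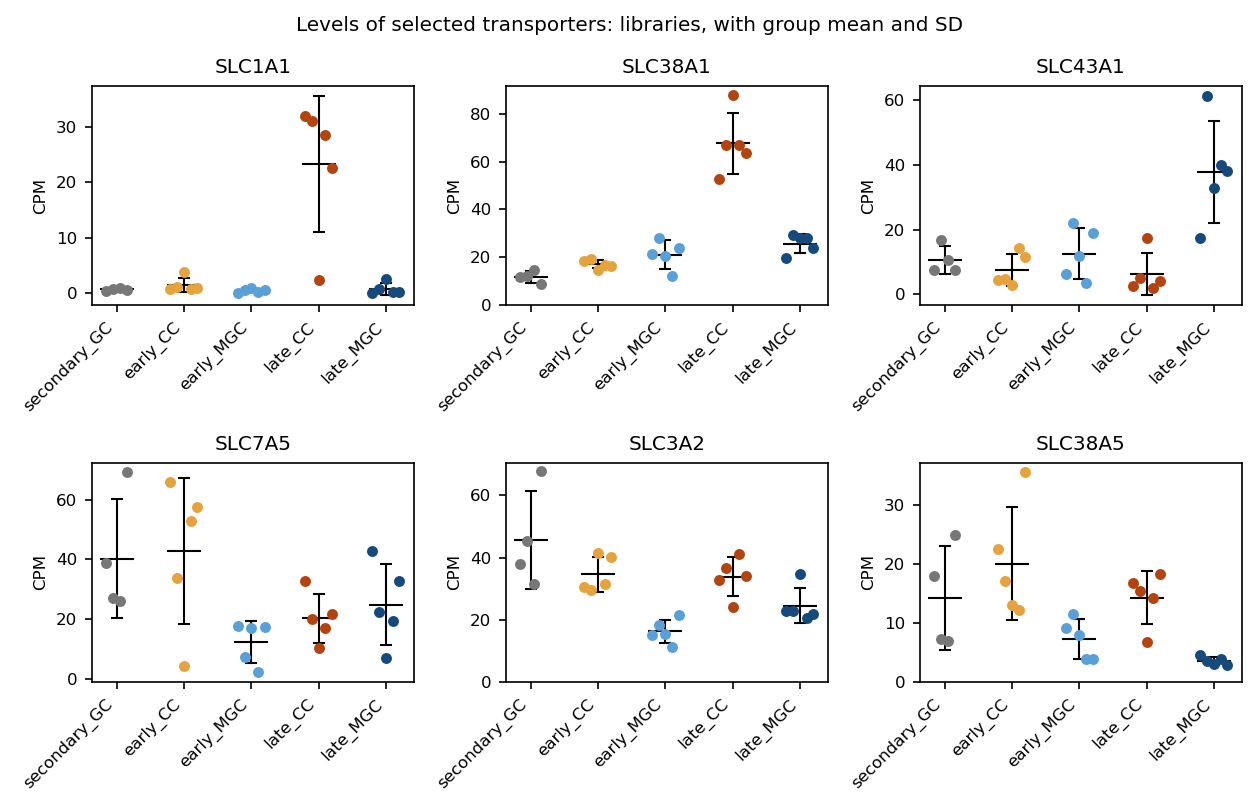
CPM of 6 transporters in each library (points), with the group mean (dash) and SD (bar), by group on the horizontal axis. SLC1A1 and SLC38A1 are highest in late_CC, SLC43A1 in late_MGC, and the spread of SLC7A5 covers most of its range in early_CC.

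Of the glutamate carriers of the SLC1 family, SLC1A1 was higher and SLC1A3 lower in late_CC than in late_MGC. SLC1A1, which takes up glutamate, aspartate and cysteine (ENSBTAG00000019125, chromosome 8, 39928081 to 40003010), stood at 31.9, 31.1, 2.35, 28.5 and 22.5 CPM in late_CC, against 0.882, 1.12, 3.81, 0.862 and 1.004 CPM in early_CC. In late_MGC it stood at 0.0348, 0.846, 2.57, 0.180 and 0.190 CPM. Thus 4 of 5 late_CC libraries were at 22.5 CPM or more, library 3 of late_CC was at the level of the other groups, and no library outside late_CC exceeded 3.81 CPM. SLC1A1 rose in late_CC over early_CC (3.90 ± 0.75, adjusted p = 0.00020) and was higher in late_CC than in late_MGC (4.80 ± 0.79, adjusted p = 4.5e-05), while late_MGC over early_MGC was 0.56 ± 0.78 (adjusted p = 0.664). The change over stages differed between the cell types (3.34 ± 1.06, adjusted p = 0.0188). Without library 3 of late_CC the first 2 of these values were 4.19 and 5.09, and without library 3 of late_MGC the value against late_MGC was 6.07. Some marker sums moved with SLC1A1 among these libraries. In the 4 late_CC libraries with high SLC1A1, 9 granulosa markers summed to 8926 to 16938 CPM, against 2302 CPM in library 3. The same sum was 2228 to 2841 CPM in early_CC. Of these markers, INHBA was 4890 to 11334 CPM in the 4 and 191 CPM in library 3. CYP19A1 was 39.2 to 60.3 CPM in the 4 and 4.36 CPM in library 3, and FSHR 330 to 397 CPM and 301 CPM. The sums of 9 blood cell markers were 31.8 to 72.3 CPM in the 4 and 2.01 CPM in library 3. Those of 14 theca and stroma markers were 564 to 727 CPM in the 4 and 226 CPM in library 3. The sum of 10 endothelium markers was instead highest in library 3, at 11.4 CPM, against 4.02 to 8.60 CPM in the 4. Nearly all of the blood sum was haemoglobin HBA, while HBB, PTPRC and CD52 had no count in late_CC. INSL3 was the highest of the theca and stroma markers in late_CC, averaging 402 CPM. Of the others, LUM was 26.2 CPM in library 3 and 31.4 to 60.7 CPM in the 4. DCN (0.554 CPM in library 3) and STAR (4.78 CPM) lay within the range of the 4, and COL3A1 was 0.138 CPM in library 3 and 0 in the 4. The part of these in the result was not tested.

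SLC1A3, another glutamate and aspartate carrier, best known from glia, was lower in late_CC, at 0, 0.0983, 0.208, 0.121 and 0.704 CPM, than in late_MGC, at 2.85, 2.54, 0.429, 2.94 and 2.89 CPM (-3.62 ± 0.79, adjusted p = 0.00075). The groups overlapped only because library 3 of late_MGC fell within the late_CC range, and the value without that library was -3.90. It averaged 0.761 CPM in early_CC and 2.07 CPM in early_MGC, a difference of -1.51 ± 0.70 that was not called (adjusted p = 0.155). SLC1A4, which exchanges alanine, serine, cysteine and threonine, was 0.418 ± 0.358 CPM in late_CC and 2.38 ± 1.25 CPM in late_MGC, with no overlap (-2.67 ± 0.66, adjusted p = 0.0024). At the early stage the same pair stood at 1.05 ± 0.518 CPM in early_CC and 1.07 ± 1.03 CPM in early_MGC (-0.11 ± 0.62, adjusted p = 0.933). The change over stages differed between the cell types for SLC1A4 (-2.56 ± 0.90, adjusted p = 0.031), but leaving out any of 8 libraries, among them library 4 of late_MGC (-2.26, adjusted p = 0.068), lost that call. All of these levels of SLC1A3 and SLC1A4 were low, and rest on 760 and 683 counts over all libraries.

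SLC3A2, the heavy chain that carries SLC7A5, SLC7A6, SLC7A7, SLC7A8, SLC7A10 and SLC7A11 to the membrane (ENSBTAG00000013240, chromosome 29, 41158413 to 41199503), was lowest in early_MGC. It stood at 15, 18.3, 15.3, 11.2 and 21.3 CPM in early_MGC, against 37.8, 45.3, 31.5 and 67.8 CPM in secondary_GC. In late_MGC it stood at 22.7, 22.8, 34.7, 20.6 and 21.7 CPM, and in early_CC at 30.6, 29.5, 41.5, 31.5 and 40.0 CPM. Early_MGC overlapped neither secondary_GC nor early_CC. SLC3A2 fell in early_MGC against secondary_GC (-1.36 ± 0.19, adjusted p = 0.00022), rose in late_MGC over early_MGC (0.70 ± 0.18, adjusted p = 0.0093) and was higher in early_CC than in early_MGC (0.999 ± 0.19, adjusted p = 0.0013). In cumulus cells it was 33.8 ± 6.31 CPM in late_CC and 34.6 ± 5.66 CPM in early_CC (-0.04 ± 0.18, adjusted p = 0.880). The difference between the changes over stages was called (-0.74 ± 0.26, adjusted p = 0.0315), and that call was lost without library 3 of late_MGC (-0.63, adjusted p = 0.055) or any of 5 other libraries.

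The light chains that pair with SLC3A2 summed to 17.2 ± 8.22 RPKM in secondary_GC, 13.3 ± 4.60 in early_CC, 8.68 ± 4.26 in early_MGC, 6.67 ± 1.46 in late_CC and 9.25 ± 1.64 in late_MGC. SLC3A2 itself was 20.7 ± 7.21 RPKM in secondary_GC, 15.7 ± 2.57 in early_CC, 7.37 ± 1.72 in early_MGC, 15.3 ± 2.87 in late_CC and 11.1 ± 2.61 in late_MGC. In late_CC the heavy chain exceeded the sum of its light chains in every library, since the lowest of SLC3A2 was 10.95 RPKM and the highest of the sum 9.10 RPKM; these sums were not tested.

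**Figure D3:**
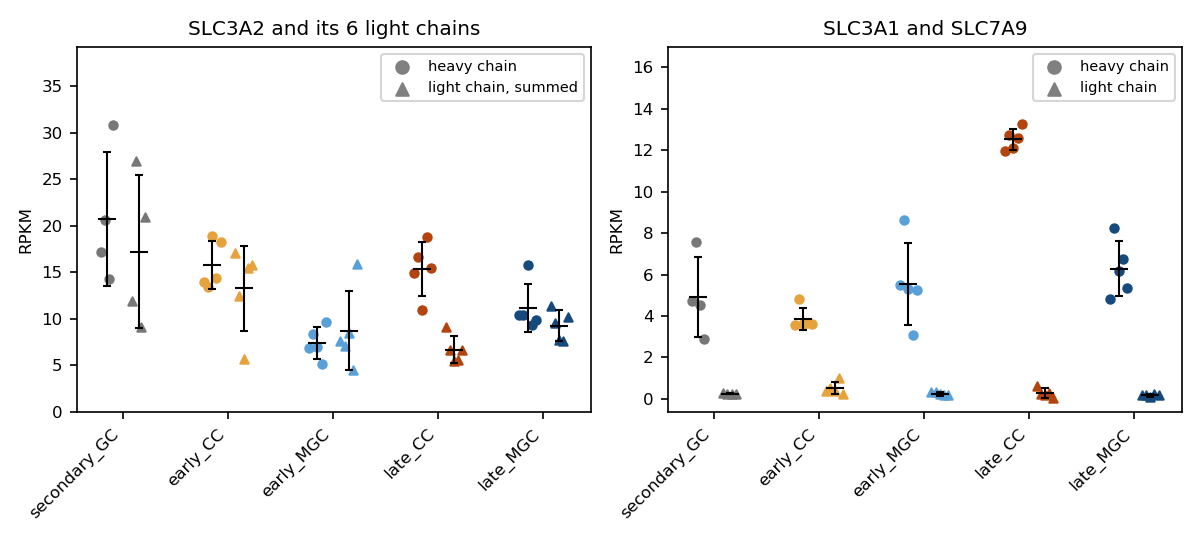
RPKM of the heavy chains (circles) and of their light chains (triangles) in each library, with group mean and SD; the left panel sums 6 light chains of SLC3A2 and the right panel shows SLC3A1 and SLC7A9. In late_CC the circles lie above the triangles in both panels.

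SLC7A5, the exchanger that brings in leucine and other large neutral amino acids, was the most abundant of these light chains in every group except early_MGC, where it averaged 2.59 RPKM and SLC7A11 3.07 RPKM. Without library 5 of early_MGC that order turned, to 2.33 RPKM for SLC7A5 and 1.75 RPKM for SLC7A11. It varied widely among libraries. It stood at 32.8, 20, 10.2, 16.9 and 21.6 CPM in late_CC, against 65.9, 33.7, 4.36, 52.7 and 57.6 CPM in early_CC. In mural cells it stood at 42.7, 22.2, 6.91, 19.3 and 32.7 CPM in late_MGC, against 17.5, 7.27, 17.1, 2.39 and 17.3 CPM in early_MGC. Both pairs overlapped, and neither change was called (cumulus -1.07 ± 0.57, adjusted p = 0.135; mural 1.18 ± 0.58, adjusted p = 0.164), but the difference between them was (-2.25 ± 0.82, adjusted p = 0.040). That call was lost when any of 11 libraries was left out, for example library 1 of late_MGC (-1.89, adjusted p = 0.090). In early_MGC all 5 libraries lay below the 4 of secondary_GC, which stood at 26.1 to 69.1 CPM, and the difference missed the threshold (-1.58 ± 0.61, adjusted p = 0.108), though DESeq2 called it (-1.61, adjusted p = 0.032). Without library 3 of early_CC, the lowest there, edgeR called the fall in late_CC against early_CC (-1.36, adjusted p = 0.029) and the higher level in early_CC than in early_MGC (1.999, adjusted p = 0.015, against 0.057 with all libraries). With all libraries DESeq2 called the latter (1.69, adjusted p = 0.012). In the joint test over the 5 groups DESeq2 called SLC7A5 (adjusted p = 0.019) and edgeR did not (adjusted p = 0.079).

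SLC7A11, which exchanges cystine for glutamate and so feeds glutathione synthesis, was lower in cumulus than in mural cells. It stood at 0.115, 0.491, 0.138, 0 and 0.141 CPM in late_CC and at 0.417, 3.45, 0.536, 1.26 and 1.23 CPM in late_MGC (-3.03 ± 0.95, adjusted p = 0.0140). The early groups, 0.762 ± 0.544 CPM in early_CC and 4.51 ± 4.46 CPM in early_MGC, differed in the same direction (-2.57 ± 0.85, adjusted p = 0.046). Both pairs of groups overlapped, and the early call was lost when any of 12 libraries was left out; without library 5 of early_MGC it was -1.88 (adjusted p = 0.168). In secondary_GC it was 6.57 ± 9.79 CPM, since 1 library held 21.2 CPM and the other 3 at most 2.88 CPM.

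SLC7A6, which exchanges basic for neutral amino acids, was 5.28 ± 3.19 CPM in late_CC and 12.1 ± 5.60 CPM in late_MGC (-1.35 ± 0.37, adjusted p = 0.0055). SLC7A8, an exchanger of small and large neutral amino acids, fell to 0.558 ± 0.531 CPM in late_CC, against 1.92 ± 0.519 CPM in early_CC (-1.72 ± 0.68, adjusted p = 0.0415), without overlap; the call was lost when any of 7 libraries was left out, with values between -1.41 and -1.75. SLC7A7, which exports basic amino acids, was called in no pairwise comparison but was called in the joint test (adjusted p = 0.0499), a call lost without a filter (adjusted p = 0.056) and in 19 of the 24 fits that left out 1 library (adjusted p between 0.0032 and 0.118 over the 24). Without library 3 of late_MGC it fell in late_MGC against early_MGC (-1.26, adjusted p = 0.013) and was higher in late_CC than in late_MGC (1.02, adjusted p = 0.025). Of its exon bases, 7.54% overlap OXA1L, from which reads counted without regard to strand cannot be separated. SLC7A1, the main importer of arginine and lysine, works without a heavy chain. It stood at 0.572, 1.57, 1.18, 3.32 and 3.17 CPM in late_CC, against 0.283, 0.612, 0.299, 1.03 and 0.482 CPM in early_CC, a rise (1.82 ± 0.71, adjusted p = 0.038) that was lost without library 4 of late_CC (1.60, adjusted p = 0.090) or any of 5 other libraries.

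The other heavy chain, SLC3A1, is known from kidney and gut, where it forms a carrier of cystine and basic amino acids with SLC7A9. SLC3A1 (ENSBTAG00000017421, chromosome 11, 26701406 to 26735016) stood at 28.8, 30.6, 29.2, 30.3 and 31.9 CPM in late_CC, against 8.53, 11.6, 8.73, 8.79 and 8.67 CPM in early_CC. In late_MGC it stood at 11.7, 19.9, 14.9, 16.2 and 12.9 CPM. Late_CC overlapped neither group, and SLC3A1 rose in late_CC over early_CC (1.71 ± 0.23, adjusted p = 2.7e-06) and was higher in late_CC than in late_MGC (0.81 ± 0.22, adjusted p = 0.0054). In mural cells it was 15.1 ± 3.21 CPM in late_MGC and 13.4 ± 4.78 CPM in early_MGC (0.28 ± 0.22, adjusted p = 0.405), and the changes over stages differed (1.43 ± 0.31, adjusted p = 0.0013). The change of its partner SLC7A9 was not called: it averaged 0.285 RPKM in late_CC and 0.512 RPKM in early_CC, while SLC3A1 averaged 12.5 RPKM in late_CC and 3.85 RPKM in early_CC (SLC7A9, -0.83 ± 0.55, adjusted p = 0.227). SLC3A1 shares 348 exon bases, 14.5% of its length, with PREPL, and PREPL was 29.4 ± 5.73 CPM in late_CC, 11.8 ± 2.59 in early_CC, 21.8 ± 3.42 in late_MGC and 23.3 ± 3.68 in early_MGC; the part of shared reads in the values of SLC3A1 was not tested.

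**Figure D4:**
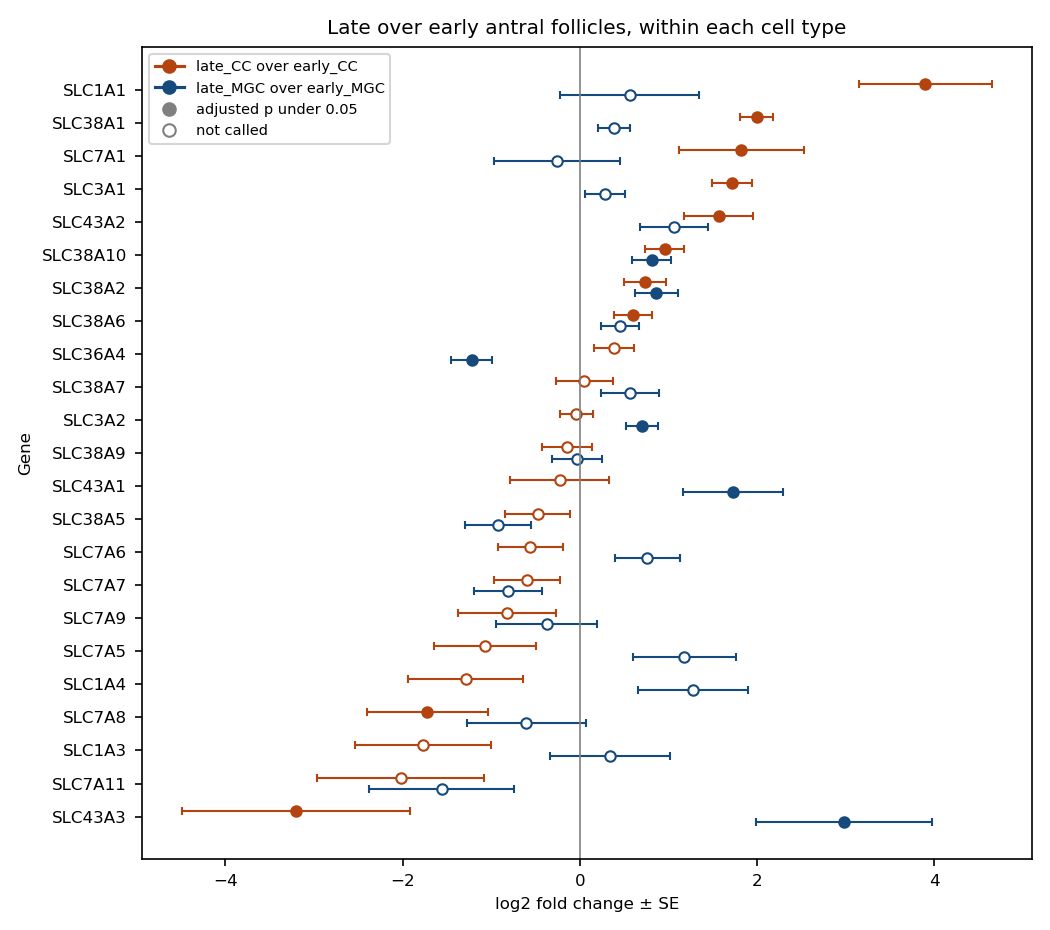
Log2 fold changes (± SE) of the 23 tested transporters in late over early antral follicles, for cumulus cells (brown) and mural cells (blue); filled points have an adjusted p under 0.05. SLC1A1, SLC38A1 and SLC3A1 are filled in cumulus cells only, SLC38A2 and SLC38A10 in both cell types, and SLC43A3 in both with opposite signs.

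SLC43A1 and SLC43A2 are facilitators of leucine and other large neutral amino acids. SLC43A1 had its highest mean in late_MGC and SLC43A2 in late_CC. SLC43A1 (ENSBTAG00000051230, chromosome 15, 80743589 to 80773253) stood at 17.5, 61.4, 33.1, 40.0 and 38.1 CPM in late_MGC, against 6.30, 22.03, 11.98, 3.58 and 18.9 CPM in early_MGC. In late_CC it stood at 2.58, 4.96, 17.6, 1.93 and 4.09 CPM. Late_MGC lay above late_CC except that library 3 of late_CC reached the lowest late_MGC value. SLC43A1 was lower in late_CC than in late_MGC (-2.75 ± 0.59, adjusted p = 0.00080; -3.68 without library 3 of late_CC) and rose in late_MGC over early_MGC (1.73 ± 0.56, adjusted p = 0.035). The rise was lost when any of 6 libraries was left out, with values between 1.503 and 1.74, and late_CC over early_CC was -0.23 ± 0.56 (adjusted p = 0.761). The difference between the changes over stages was not called (-1.96 ± 0.79, adjusted p = 0.063), but was without library 3 of late_CC (-2.89, adjusted p = 0.0023).

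SLC43A2 (ENSBTAG00000011482, chromosome 19, 22690663 to 22730143) stood at 35.7, 49.4, 142, 76.5 and 43.1 CPM in late_CC, against 18.5, 22.5, 18.7, 39.0 and 20.2 CPM in early_CC. It rose (1.57 ± 0.39, adjusted p = 0.0021), also without library 3 of late_CC, the highest (1.06, adjusted p = 0.0127). In late_MGC it was 30.9 ± 17.9 CPM, against 15.4 ± 3.29 CPM in early_MGC, which missed the threshold (1.06 ± 0.39, adjusted p = 0.056). The changes of SLC43A2 over stages did not differ detectably between the cell types (0.50 ± 0.54, adjusted p = 0.509). The higher level in late_CC than in late_MGC (1.03 ± 0.38, adjusted p = 0.035) was lost without library 3 of late_CC (0.53, adjusted p = 0.221) and without each of 4 other libraries.

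SLC43A3, close to SLC43A1 on chromosome 15 (ENSBTAG00000010060, 80673388 to 80692495), is known as a carrier of purine nucleobases rather than of amino acids. It stood at 0.904, 0.967, 13.4, 0.240 and 0.996 CPM in late_MGC, against 0.247, 1.33, 0.120, 0.119 and 0.280 CPM in early_MGC. Library 3 of late_MGC, the library with the high theca and stroma sum, held most of its late_MGC signal. The rise in late_MGC over early_MGC (2.98 ± 0.99, adjusted p = 0.0355) was 1.07 without that library (adjusted p = 0.427) and was also lost without library 1, 3, 4 or 5 of early_MGC. In late_CC it had 2 counts in 1 library and none in the other 4. That is a ratio of 0.0800 to early_CC, which had 37 counts (exact 95% interval 0.00934 to 0.310), and of 0.00773 to late_MGC, which had 317 counts (0.000932 to 0.0282). Of those 317 counts, 250 were in library 3, and without it the ratio was 0.0299 (0.00354 to 0.112). Both differences were called (adjusted p = 0.045 against early_CC and 0.00020 against late_MGC). The call against early_CC was lost when any of 7 libraries of late_CC or early_CC was left out (adjusted p between 0.0568 and 0.0980). The interaction was -6.18 ± 1.62 (adjusted p = 0.0051), and -4.26 without library 3 of late_MGC (adjusted p = 0.0247).

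SLC36A4, a carrier of proline and tryptophan that is known to act with mTORC1, had its highest mean in early_MGC. It stood at 22.1, 35.5, 18.3, 22.4 and 43.1 CPM in early_MGC, and at 16.7, 13.5, 10.7, 13.9 and 13.3 CPM in early_CC. In late_MGC it stood at 9.04, 9.43, 16.2, 11.1 and 10.3 CPM. Early_MGC overlapped neither early_CC nor late_MGC. It did overlap late_CC and secondary_GC, the latter at 20.9 ± 4.52 CPM. Early_MGC did not differ detectably from secondary_GC (0.55 ± 0.24, adjusted p = 0.162). SLC36A4 fell in late_MGC against early_MGC (-1.22 ± 0.23, adjusted p = 0.00060) and was lower in early_CC than in early_MGC (-1.13 ± 0.23, adjusted p = 0.0024). In late_CC it was 17.9 ± 5.60 CPM, against 13.6 ± 2.12 CPM in early_CC (0.39 ± 0.23, adjusted p = 0.171). Without library 3 of late_CC, the lowest at 8.44 CPM, that rise was called (0.55, adjusted p = 0.035), and so was the higher level in late_CC than in late_MGC (0.64, adjusted p = 0.018, against 0.104 with all libraries). The changes over stages differed between the cell types (1.61 ± 0.32, adjusted p = 0.00060). The gene lies on chromosome 29 (ENSBTAG00000008530, 1701573 to 1743386).

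**Figure D5:**
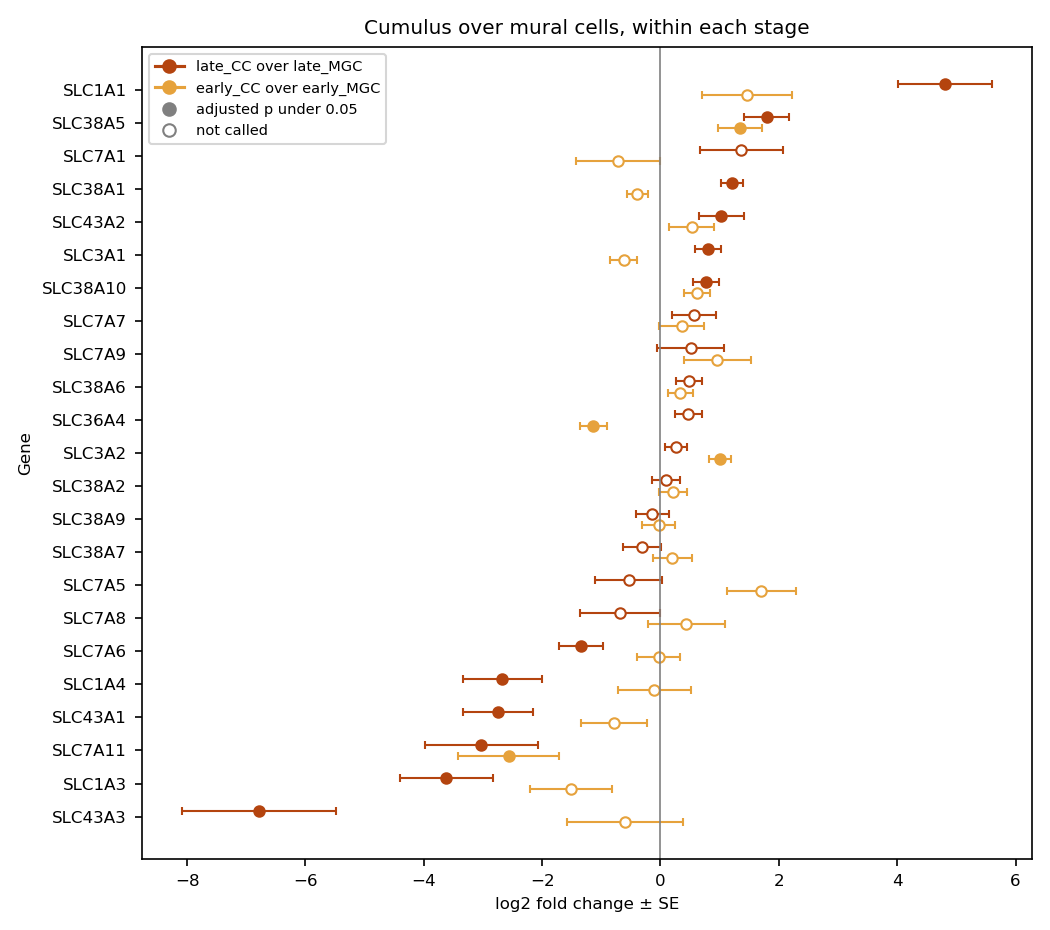
Log2 fold changes (± SE) of the 23 tested transporters in cumulus over mural cells, for late antral (brown) and early antral follicles (yellow-orange); filled points have an adjusted p under 0.05. SLC38A5 and SLC7A11 are filled at both stages, with SLC38A5 higher and SLC7A11 lower in cumulus cells.

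Of the 23 tested transporters, 19 were called in a pairwise comparison or in the interaction, and SLC38A7, SLC38A9, SLC7A7 and SLC7A9 were not. Among those called, SLC38A1, SLC38A10, SLC3A1, SLC1A1 and SLC36A4, as well as SLC3A2 in its pairwise comparisons, kept every call when any single library was left out. At the late stage, so did SLC1A3, SLC1A4, SLC43A1, SLC7A6, SLC7A11 and SLC38A5 in cumulus against mural cells, and SLC43A2 in late_CC over early_CC.

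Genes on a list drawn up around the transcription factor ATF4 and the response to amino acid shortage moved in both directions. Besides genes that respond through ATF4, the list holds genes that act upstream of it, such as EIF2AK4 and GCN1. It also holds XBP1 and ATF6 of the unfolded protein response. Of 36 tested genes of that list, 9 rose and 8 fell in late_CC over early_CC, and 7 were higher and 9 lower in late_CC than in late_MGC, so that 17 and 16 of 36 were called where 45.2% and 39.7% of all genes were. The list's median log2 fold change was -0.04 for late_CC over early_CC and -0.01 for late_CC over late_MGC, against 0.04 and 0.02 for all genes tested. In the interaction 14 of the 36 were called, 5 higher and 9 lower, where 14.5% of all genes were higher and 16.9% lower. SESN2, which holds back mTORC1 when leucine is short, stood at 54.2, 65.1, 81.5, 65.8 and 50.6 CPM in late_CC and at 5.70, 6.23, 6.32, 3.19 and 6.03 CPM in late_MGC, with no overlap (3.33 ± 0.24, adjusted p = 4.1e-09). CHAC1, which degrades glutathione, was 91.5 ± 45.1 CPM in late_CC and 6.38 ± 3.51 CPM in late_MGC (3.57 ± 0.43, adjusted p = 9.6e-07). DDIT4, another brake on mTORC1, was 862 ± 474 CPM in late_CC, 140 ± 106 CPM in early_CC and 24.4 ± 6.59 CPM in late_MGC (2.59 ± 0.48 over early_CC, adjusted p = 0.00017; 4.88 ± 0.54 over late_MGC, adjusted p = 3.8e-07). As with SLC1A1, library 3 of late_CC was the lowest, at 122 CPM of DDIT4 against 806 to 1421 CPM in the other 4.

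Among the members that were lower in late_CC, CTH, which makes cysteine from cystathionine, stood at 0.111 ± 0.198 CPM in late_CC, 1.96 ± 0.567 CPM in early_CC and 3.35 ± 1.51 CPM in late_MGC, with 0 counts in 3 of 5 late_CC libraries (-3.96 ± 0.68, adjusted p = 5.3e-05; -4.97 ± 0.69, adjusted p = 4.4e-06). PSAT1, an enzyme of serine synthesis, fell to 1.27 ± 0.322 CPM in late_CC, against 5.23 ± 2.80 CPM in early_CC (-2.01 ± 0.41, adjusted p = 0.00033). XBP1, a transcription factor of the unfolded protein response, fell to 25.9 ± 7.76 CPM in late_CC, against 88.0 ± 17.6 CPM in early_CC (-1.76 ± 0.35, adjusted p = 0.00027). In mural cells 8 of the 36 rose and 4 fell over the same stages, where 9.76% of all genes rose and 9.3% fell. The list's median log2 fold change was 0.09 there, against 0.05 for all genes tested. The 4 that fell had the largest fold changes of the called genes and are therefore the ones named. They were SESN2 (-1.61 ± 0.23, adjusted p = 2.7e-05), CHAC1 (-1.38 ± 0.40, adjusted p = 0.019), DDIT3 (-1.39 ± 0.42, adjusted p = 0.023) and ATF3 (-2.69 ± 0.84, adjusted p = 0.030). The call was lost for CHAC1 without library 4 of late_MGC (-1.18, adjusted p = 0.051), and for DDIT3 (-1.01, adjusted p = 0.094) and ATF3 (-2.33, adjusted p = 0.074) without library 5 of early_MGC, among others; ATF3 was -4.24 without library 3 of late_MGC. In early_CC against early_MGC 7 were higher and none lower, where 6.7% of all genes were higher and 6.39% lower. Of the 7, PHGDH and SESN2 lost the call in many of the fits without 1 library (0.76, adjusted p = 0.129, for PHGDH without library 5 of early_CC; 0.60, adjusted p = 0.108, for SESN2 without library 4 of early_CC). The largest fold was that of the mitochondrial serine enzyme SHMT2 at 200 ± 11.6 CPM in early_CC and 66.3 ± 26.2 CPM in early_MGC (1.49 ± 0.25, adjusted p = 0.00066). Against secondary_GC, 5 of the 36 fell in early_MGC and none rose, where 4.08% of all genes fell and 5.01% rose. XBP1 fell the most there (-1.75 ± 0.36, adjusted p = 0.0047). In early_CC against secondary_GC SHMT2 alone was called, where 1.99% of all genes were. It rose (1.15 ± 0.27, adjusted p = 0.021), a call lost without library 3 of early_CC or library 2, 3 or 4 of secondary_GC.

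Genes of amino acid sensing at the lysosome and of mTORC1 were called for 21 of 42 in late_CC over early_CC, 10 higher and 11 lower, where 45.2% of all genes were called, and for 18 in the interaction, where 31.4% were. The list's median log2 fold change was 0.01 for late_CC over early_CC and 0.13 for late_CC over late_MGC. RHEB, the small GTPase that activates mTORC1, fell to 31.3 ± 9.54 CPM in late_CC, against 114 ± 24.2 CPM in early_CC (-1.86 ± 0.31, adjusted p = 4.6e-05). The mTOR subunit MLST8 (-1.69 ± 0.37, adjusted p = 0.00058), SEC13 of the GATOR complex (-1.50 ± 0.24, adjusted p = 2.1e-05) and the translation repressor EIF4EBP1 (-1.49 ± 0.41, adjusted p = 0.0051) fell as well. In late_CC against late_MGC 11 were higher and 5 lower, where 18.9% of all genes were higher and 20.8% lower. TSC1, an inhibitor of RHEB, was 63.8 ± 6.51 CPM in late_CC and 18.5 ± 5.33 CPM in late_MGC (1.60 ± 0.24, adjusted p = 9.4e-06), and NPRL3, which inhibits the Rag GTPases, was 15.3 ± 5.82 CPM in late_CC and 4.40 ± 1.42 CPM in late_MGC (1.58 ± 0.26, adjusted p = 3.0e-05). RHEB and LAMTOR2 were lower there (-1.50 ± 0.31, adjusted p = 0.00045; -1.56 ± 0.24, adjusted p = 1.9e-05). In late_MGC over early_MGC 2 rose and 2 fell (9.76% and 9.3% of all genes). In early_CC over early_MGC 5 were higher and 2 lower (6.7% and 6.39% of all genes). Against secondary_GC 3 fell in early_MGC and 2 in early_CC, with none higher. Of all genes, 4.08% fell and 5.01% rose in early_MGC, and 1.05% fell and 0.944% rose in early_CC.

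Enzymes of glutamine, glutamate, glutathione, polyamine and branched-chain amino acid metabolism were called for 11 of 25 in late_CC over early_CC, 4 higher and 7 lower, where 45.2% of all genes were called, with a median log2 fold change of -0.10 over the list. GCLC, which catalyses the first step of glutathione synthesis, rose to 1406 ± 257 CPM in late_CC, against 393 ± 102 CPM in early_CC (1.84 ± 0.42, adjusted p = 0.0010), and was 422 ± 290 CPM in late_MGC (late_CC over late_MGC 1.53 ± 0.42, adjusted p = 0.0054). Enzymes of branched-chain amino acid breakdown were among the lower ones: BCAT2 fell to 11.02 ± 2.61 CPM in late_CC, against 51.9 ± 8.80 CPM in early_CC (-2.24 ± 0.32, adjusted p = 8.0e-06), and BCKDHB to 17.6 ± 2.67 CPM in late_CC, against 71.1 ± 14.3 CPM in early_CC (-2.004 ± 0.24, adjusted p = 6.8e-07). Both were also lower in late_CC than in late_MGC, as was the ornithine decarboxylase inhibitor OAZ1 (-1.59 ± 0.23, adjusted p = 7.2e-06), within 3 higher and 9 lower of 25 (18.9% and 20.8% of all genes), and the list's median was -0.35 there. In late_MGC over early_MGC 8 rose and 1 fell (9.76% and 9.3% of all genes); of the 8, the spermine synthase SMS was 0.33 without library 3 of late_MGC (adjusted p = 0.224), against 1.01 with it. In the earlier comparisons at most 2 were called, where between 1.99% and 13.1% of all genes were. The interaction called 10, 2 higher and 8 lower, where 14.5% of all genes were higher and 16.9% lower.

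Transporters outside the 6 families, of which 20 of 42 listed could be tested, gave 4 rises and 1 fall in late_CC over early_CC, where 22.5% of all genes rose and 22.7% fell, with a median log2 fold change of 0.15. SLC17A7, known as a carrier that loads glutamate into synaptic vesicles, stood at 7.10, 7.03, 5.33, 5.62 and 7.33 CPM in late_CC, against 0, 0.204, 0.214, 0.646 and 0.161 CPM in early_CC (4.72 ± 0.83, adjusted p = 0.00011). It averaged 1.14 CPM in late_MGC and had no count in early_MGC, which allows at most 0.0390 CPM (3 counts over that group). The peptide carrier SLC15A1 rose to 6.82 ± 2.098 CPM in late_CC, against 1.23 ± 0.497 CPM in early_CC (2.48 ± 0.62, adjusted p = 0.0021), as did SFXN1, the mitochondrial serine carrier (0.88 ± 0.22, adjusted p = 0.0023). The single fall, MPC1 (-2.61 ± 0.32, adjusted p = 1.1e-06), carries pyruvate and no amino acid. In late_MGC over early_MGC 5 rose and 3 fell, where 9.76% of all genes rose and 9.3% fell. The neutral amino acid carrier SLC6A15 fell to 1.84 ± 1.11 CPM in late_MGC, against 11.9 ± 4.48 CPM in early_MGC (-2.57 ± 0.41, adjusted p = 9.4e-05). SLC17A7, without a count in early_MGC, and SFXN1 rose in mural cells as well (7.67 ± 1.33, adjusted p = 0.00038; 1.08 ± 0.22, adjusted p = 0.0014). Among the rises was also the lysosomal carrier SLC17A5 (2.92 ± 0.81, adjusted p = 0.0147). Its late_MGC mean was 46.6 CPM, but the median was 6.55 CPM, against a mean of 6.10 CPM in early_MGC. In late_CC against late_MGC 5 were higher and 3 lower (18.9% and 20.8% of all genes), with a median of 0.19. The interaction called 6 of 20, where 31.4% of all genes were called. SLC17A5 was lower in late_CC than in late_MGC (-2.71 ± 0.80, adjusted p = 0.010). That difference rests on library 3 of late_MGC with 209 CPM, and was 0.05 without it (adjusted p = 0.912).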

How the data were processed

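RNA-seq of 24 libraries was analysed from a single table. Its values are read counts per gene, which the authors obtained, per the file headers, by running featureCounts 2.0.0 over the exons of an Ensembl annotation of ARS-UCD1.2, with no option for strand. The deposited table also gives a summed exon length per gene, which is neither a count nor a level and served for RPKM. Read trimming and alignment tools named in the submitters' processing notes are HISAT2 2.1.0, SAMtools 1.10 and fastp 0.20.0, with bosTau9 as the build. The libraries were made with an ultra-low-input cDNA kit and transposase tagging, per the labels, and the counts are not stranded, so overlapping genes cannot be separated. Of the columns with values of a library, 1 (undetermined reads) was not used. The columns of late_MGC carry no number and those of secondary_GC other numbers than the titles, so both are numbered by column order.

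Symbols were assigned by position: gene spans and RefSeq spans on ARS-UCD2.0 were paired as reciprocal best matches if the shared part covered 0.5 or more of the joint span, or if both ends coincided. Of 12219 genes averaging 1 CPM or more, 10805 (88.4%) got a symbol, and after a shift of 1000000 bases 1004 still did. Single names may therefore be wrong. Of 39 transporter symbols 35 matched, and 12 of these shared a start or an end. The smallest overlap, 0.669, was that of SLC38A1, whose gene model held 1557 exon bases.

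Counts were tested with edgeR 4.0.16 in R 4.3.3 (quasi-likelihood, TMM scaling, filterByExpr, robust dispersions, all libraries in 1 fit by group), with Benjamini-Hochberg adjustment over 14298 genes. Standard errors were taken as the fold change over the root of F. The fit was tested on simulated data. Alternatives were RLE scaling, no filter, DESeq2 1.42.0, a replicate block, and leaving out each library. Leaving out both libraries that stand apart was chosen after seeing the data. Within groups, no pair of libraries was a copy (46 pairs, lowest chi-square per degree of freedom 18.56).

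The transporter set, the 4 lists of other genes and the comparisons were chosen with earlier results of these data known. Named are all set members, with values for a fixed list and for members called in a comparison, up to 10 per comparison by fold change, and per other list the called genes of largest fold change, up to 4 per comparison. A promoter motif and sequences were planned and are not used here. A result for 1 gene of these lists is not reported here.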

Additional observations from a re-analysis of the deposited data

Results flagged for a closer look

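In 16 of 115 groups of values (23 transporters in 5 groups), 1 library lay far from the others of its group; chance gives about 1 in 20 for normally distributed values, and the rate for these skewed CPM values was not tested. Of these, 4 were in library 3 of late_CC: SLC1A4 at 1.04 CPM, where the other 4 libraries had 0.115 to 0.363, SLC38A2 at 533 CPM (338 to 387), SLC43A1 at 17.6 CPM (1.93 to 4.96) and SLC43A3 at 0.138 CPM (2 counts, with 0 in the others). A further 4 were in library 3 of late_MGC: SLC1A3 at 0.429 CPM (2.54 to 2.94 in the others), SLC3A2 at 34.7 CPM (20.6 to 22.8), SLC43A3 at 13.4 CPM (0.240 to 0.996) and SLC7A7 at 5.73 CPM (1.202 to 2.42). These libraries are those with the lowest correlation with their groups.

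SLC7A11 had 1 such library in 4 groups: 21.2 CPM in library 2 of secondary_GC (others 0.921 to 2.88), 12.3 CPM in library 5 of early_MGC (1.05 to 3.595), 0.491 CPM in library 2 of late_CC (0 to 0.141) and 3.45 CPM in library 2 of late_MGC (0.417 to 1.26). The others were SLC1A1 at 3.81 CPM in library 3 of early_CC (0.862 to 1.12), SLC3A1 at 11.6 CPM in library 2 of early_CC (8.53 to 8.79), SLC43A2 at 39.0 CPM in library 4 of early_CC (18.5 to 22.5) and SLC43A3 at 1.33 CPM in library 2 of early_MGC (0.119 to 0.280).

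The late-over-early change differed between cumulus and mural cells, by the interaction test, for 8 transporters. The log2 difference (cumulus change minus mural change) was 3.34 for SLC1A1, 1.61 for SLC36A4, 1.60 for SLC38A1, 1.43 for SLC3A1, -0.74 for SLC3A2, -2.25 for SLC7A5, -2.56 for SLC1A4 and -6.18 for SLC43A3.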

How the results depend on the processing

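Of the 42 called differences of transporters, all kept direction and call under RLE scaling and DESeq2. Without a filter 36 did, SLC43A1 (late_MGC over early_MGC), SLC38A6 and SLC7A1 (late_CC over early_CC), SLC7A11 (early_CC over early_MGC), SLC43A2 (late_CC over late_MGC) and SLC7A5 (interaction) losing the call. Some differences not called with all libraries were called without library 3 of late_CC, such as the falls of SLC1A4 (-1.99, adjusted p = 0.019) and SLC7A6 (-1.02, adjusted p = 0.020) in late_CC against early_CC. Without both libraries that stand apart 40 kept the call, SLC43A3 in mural cells and SLC3A2 in the interaction losing it. Leaving out a library of a group compared lost the call in 79 of 498 refits, leaving out one of another group in 3 of 510, and no sign turned. Transporters called in late_CC over early_CC were 10 (7 to 12 when single libraries were left out), in late_CC against late_MGC 12 (11 to 14), in late_MGC over early_MGC 6 (4 to 7) and in the interaction 8 (6 to 9). In early_CC against early_MGC there were 4 (2 to 6 when single libraries were left out, 2 without library 5 of early_MGC) and 8 without the libraries that stand apart. In early_CC against secondary_GC there were 0 (0 to 1), 2 with DESeq2 (SLC1A3 and SLC7A11) and 3 without those libraries (SLC1A3, SLC38A1 and SLC7A11). Genes called were 1301 in early_MGC against secondary_GC (516 to 1895 when single libraries were left out, 2320 without both), 285 in early_CC against secondary_GC (150 to 741, 1175 without both, 729 with DESeq2) and 1871 in early_CC against early_MGC (1222 to 2555, 3034 without both); the cause was not tested. SLC17A5 in late_CC against late_MGC, -2.71, ranged from -3.002 to 0.0485 when single libraries were left out, the last without library 3 of late_MGC, and was 0.22 without both libraries. Whether equal replicate numbers pair the samples was not settled. Of 15 same-number pairs 4 correlated above 0.1, as did 9 of 60 others. The 4 highest correlations, 0.322 to 0.42, were all same-number pairs, 3 of them among the libraries numbered 1. With a replicate block, possible only for groups with numbered columns, 8 transporters were called in late_CC over early_CC, without SLC43A3 and SLC7A1, and 3 in early_CC over early_MGC, without SLC7A11. Depth limits the rarest tested transporters most, such as SLC7A9 with 391 counts and SLC43A3 with 404 counts over all libraries.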
